A study of Homo sapiens with 6 samples.

Results

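Cytosolic ribosomal protein genes were examined in long-read edit data from HEK293T cells, an immortalized human embryonic kidney line that the sample labels also name HEK293XT. Members were taken by name from protein-coding genes of GENCODE release 44: symbols of RPL or RPS followed by a number, with RPSA, RPLP0, RPLP1 and RPLP2, and without RPS6K genes, RPS19BP1, RPL7L1 and the Y-linked gene. Of 87 such genes in the annotation, 74 had at least 1 listed edit, among 7684 genes in all. They were represented by 115 of 9831 listed isoforms. The 46 large subunit and 28 small subunit genes were compared across 3 groups of 2 libraries. RBFOX2-INSCRIBE cells, fixed on slides, received a rabbit antibody against the splicing factor RBFOX2 and then Apo1-Nb, a fusion of the cytosine deaminase APOBEC1 to a nanobody that binds rabbit antibodies. Enzyme-only cells received Apo1-Nb without the antibody, and buffer-only cells received neither. All groups are the same unmodified line, so no allele, transgene or drug differed between them, and enzyme-only libraries are named replicates 2 and 3 as in their titles. The methods place replicates on separate slides and a reporting statement in separate wells of the same line, so p-values measure only the spread between these libraries, which may be technical.

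Ribosomal proteins assemble with ribosomal RNA into a large and a small subunit. The small subunit reads the mRNA, and the large subunit joins amino acids at its peptidyl transferase centre. Their mRNAs are short, abundant and translated at high rates, and most carry a 5′ terminal oligopyrimidine tract through which growth signals regulate translation. RBFOX2 binds UGCAUG in RNA and is known for regulating alternative splicing.

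An edited C is a position where some reads of a gene carried U in place of C, counted once per gene and library. EditsC is the percent of the exonic Cs of the listed isoforms that were edited. Each library lists the fraction of reads edited at a site and no read number, so depth was not measured and no counting interval is given. A low fraction can be listed only where many reads cover the site. Over all genes the libraries held 71420 to 205791 C-to-U sites, and enzyme-only replicate 2 held 86019 against 153741 in replicate 3. Among the markers of the line, NEFL and NEFM had edited Cs in all 6 libraries, KRT8 and PAX2 had none, and VIM lacked any in enzyme-only replicate 2. The 6 markers of other cell types, from liver to oligodendrocytes, had no edited C in any library.

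Sites in ribosomal protein genes did not follow these totals. They numbered 768 and 489 in RBFOX2-INSCRIBE replicates 1 and 2, 1353 and 717 in enzyme-only replicates 2 and 3, and 502 and 591 in buffer-only replicates 1 and 2. Enzyme-only replicate 2, which had the fewest sites over all genes of the 4 libraries given Apo1-Nb, thus had the most in ribosomal protein genes. Sites with a fraction of at least 0.02 numbered 106 and 89, 107 and 88, and 60 and 52, in the same order. Among those, all 4 libraries given Apo1-Nb were above buffer-only, and enzyme-only replicate 2 was close to RBFOX2-INSCRIBE replicate 1. The mean was 628.5 ± 197 in RBFOX2-INSCRIBE, 1035 ± 450 in enzyme-only and 546.5 ± 62.9 in buffer-only (SD, n = 2), and the RBFOX2-INSCRIBE and buffer-only libraries overlapped. The ratio of the RBFOX2-INSCRIBE mean to the buffer-only mean was 1.15 for ribosomal protein genes and 2.82 for all genes. Against enzyme-only it was 0.607 and 1.70. Without enzyme-only replicate 2 the latter ratios were 0.877 and 1.32. The smallest p of a two-sided exact permutation test of 2 libraries against 2 is 0.33.

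**Figure D1:**
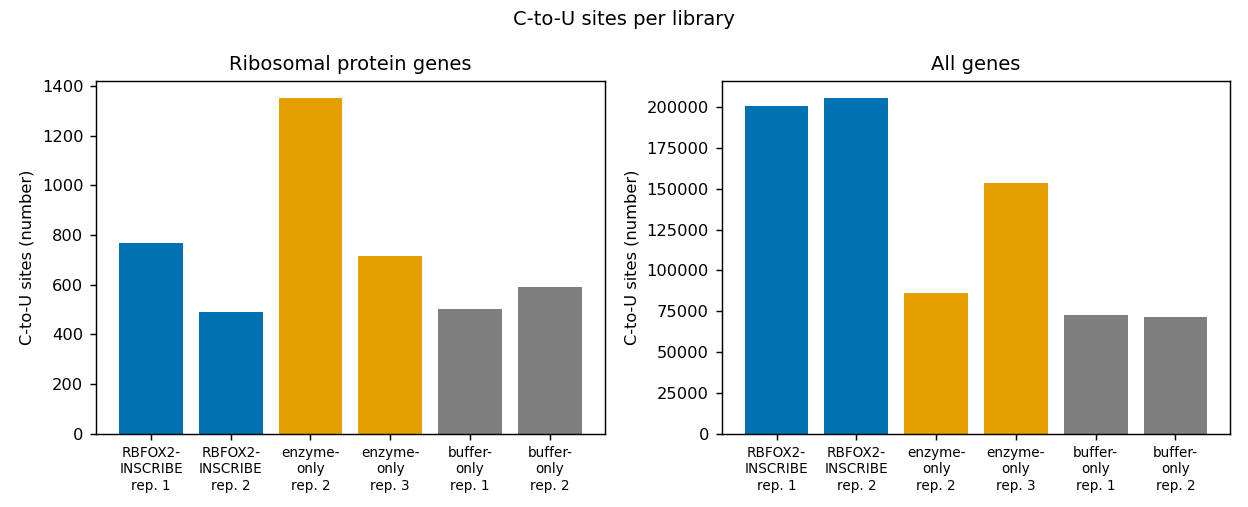
Bars give the number of C-to-U sites in each library, in ribosomal protein genes (left) and in all genes (right), coloured by group. The highest bar on the left is enzyme-only replicate 2 with 1353 sites, while the highest on the right is RBFOX2-INSCRIBE replicate 2 with 205791.

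As a share of all C-to-U sites, ribosomal protein genes held 0.383% and 0.238% in RBFOX2-INSCRIBE, 1.57% and 0.466% in enzyme-only, and 0.690% and 0.827% in buffer-only. The RBFOX2-INSCRIBE shares lay below those of all 4 control libraries. G-to-A sites, which deamination of C in the mRNA does not make, numbered 39 and 26 in RBFOX2-INSCRIBE, 106 and 39 in enzyme-only and 52 and 43 in buffer-only. Enzyme-only replicate 2 was thus highest for both kinds of site. C-to-U sites per G-to-A site in these genes were 19.7 and 18.8 in RBFOX2-INSCRIBE, 12.8 and 18.4 in enzyme-only and 9.65 and 13.7 in buffer-only. RPL5 alone held 12 and 7, 44 and 12, and 21 and 14 of the G-to-A sites. Without RPL5, left out after its values were seen, the ratios were 27.4 and 24.9, 21.0 and 25.7, and 15.6 and 19.9. Over all genes they were 29.5 and 31.1, 19.5 and 24.8, and 11.5 and 11.6. The median edit fraction in ribosomal protein genes was 0.272% and 0.517% in RBFOX2-INSCRIBE, 0.0990% and 0.232% in enzyme-only and 0.216% and 0.192% in buffer-only. Enzyme-only replicate 2, with the most sites, therefore had the lowest median fraction, whereas over other genes it had the highest, at 0.775%. The lowest fraction listed in a ribosomal protein gene was also lowest in that library, at 0.0185% against 0.0495% to 0.0978% in the other 5. The part of read depth in these differences was not tested.

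EditsC of the large subunit genes was 2.72% and 1.60% in RBFOX2-INSCRIBE, 4.23% and 2.47% in enzyme-only and 1.72% and 1.92% in buffer-only. For the small subunit genes it was 2.49% and 1.84%, 5.50% and 2.45%, and 1.75% and 2.26%. Enzyme-only replicate 2 was the highest library for both, and the other 5 libraries overlapped between groups. Of the 74 genes, 37 had an edited C in every library and 5 in a single library. The 5 most edited genes held between 35.6% and 45.0% of the edited Cs of a library, and the other members held the larger part.

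The highest editsC over all 6 libraries, among genes edited in every library, belonged to RPS2, at 24.7%, whose protein lies by the mRNA entry channel of the small subunit. RPL3, a protein that reaches the peptidyl transferase centre, followed at 22.3%. RPL7, RPS6 and RPL5 had 13.1%, 12.6% and 12.1%. RPS6 is the substrate of the S6 kinases, and RPL5 carries the 5S ribosomal RNA into the large subunit. At the low end, RPL14 had 0.512%, RPL10 had 0.813%, RPS7 had 0.915%, RPS14 had 1.05% and RPL27A had 1.06%.

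In RPS2 the edited Cs numbered 45 and 31 in RBFOX2-INSCRIBE, 153 and 61 in enzyme-only, and 48 and 72 in buffer-only. Both RBFOX2-INSCRIBE libraries were below all 4 controls. RPL3 had 69 and 36, 114 and 82, and 62 and 67, in the same order, and its RBFOX2-INSCRIBE and buffer-only libraries overlapped. RPSA, a small subunit protein also known as the laminin receptor, had 5 and 13, 49 and 20, and 9 and 19. RPS6 had 29 and 12, 75 and 32, and 16 and 26. In RPSA and RPS6 both enzyme-only libraries were above both RBFOX2-INSCRIBE libraries and above both buffer-only libraries. RPL4, a large subunit protein of the exit tunnel, had 93 and 55, 78 and 75, and 48 and 67. RPLP0, the base of the stalk that recruits elongation factors, had 35 and 18, 59 and 37, and 26 and 34. RPL4 thus overlapped between RBFOX2-INSCRIBE and both controls, and RPLP0 was highest in enzyme-only.

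**Figure D2:**
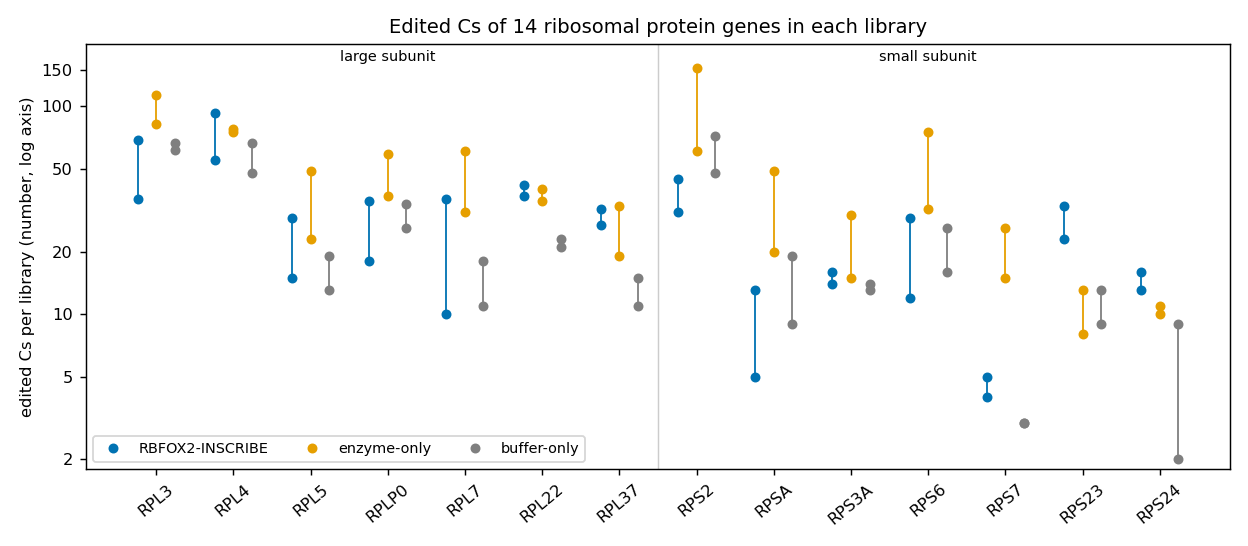
Points give edited Cs in each library on a log axis for 14 ribosomal protein genes, with lines joining the 2 libraries of a group. RPS2 in RBFOX2-INSCRIBE (45 and 31) sits below its 4 controls, whereas RPS23 in RBFOX2-INSCRIBE (23 and 33) sits above its 4 controls.

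Against enzyme-only, which shows what the antibody adds, no ribosomal protein gene passed an adjusted p of 0.05. The test was limma on log2(edited Cs + 0.5), fitted to all genes whose mean over the libraries compared reached 5 edited Cs and adjusted over all of them, so a difference is on that log2 scale. Of the 74 members, 31 passed that filter and 0 were called, where 27 of 5088 genes, 0.531%, were called, all higher in RBFOX2-INSCRIBE. The median log2 difference was -0.77 over the 31 members and 0.85 over all genes. Only 5 of the 31 were higher in RBFOX2-INSCRIBE, or 16.1%, against 85.8% of all genes tested. At an unadjusted p under 0.05, limma found 1 member higher and 4 lower, where all genes gave 918 higher and 12 lower. Without trend and robust settings, 0 members and 0 of all 5088 genes passed the adjusted threshold. Scaling each library to the same total of C-to-U sites moved the median of all genes to 0.05 and that of the members to -1.57. The direction turned over sites with a fraction of at least 0.02, where 4 members had a median of 0.67 beside 0.80 for all genes. With summed fractions it turned as well, with medians of 0.089 for the members and 0.61 for all genes. The paper left out isoforms with low read coverage and an edit fraction under 0.02, to improve signal over background. The main counts here had no such filter, and the alternative here filters sites rather than isoforms.

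The members with the smallest p were RPSA, RPS7, RPS2, RPS6 and RPS23, all of the small subunit. RPSA differed by -1.89 (SE 0.71, limma adjusted p = 0.163) and RPS7 by -2.03 (SE 0.79, limma adjusted p = 0.168). RPS2 differed by -1.36 (SE 0.62, limma adjusted p = 0.226) and RPS6 by -1.37 (SE 0.64, limma adjusted p = 0.236). RPS23, a protein of the decoding centre, was the member higher in RBFOX2-INSCRIBE at 1.39 (SE 0.71, limma adjusted p = 0.269). Edited Cs of RPS7 numbered 4 and 5 in RBFOX2-INSCRIBE and 15 and 26 in enzyme-only. RPS7 thus reached the minimum mean of 5 only through enzyme-only, so its direction followed from the filter. Of the 26 in enzyme-only replicate 3, 15 lay in a retained intron isoform (ENST00000481006) that no other library listed. In all, 13 of the 74 members had both RBFOX2-INSCRIBE libraries below both enzyme-only libraries, beside 5.31% of 7671 genes, and 3 had both above, beside 38.6%.

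Each enzyme-only library moved these values. Without enzyme-only replicate 2 the member median was -0.18 beside 0.33 for all genes, and 0 of 28 members were called. Without enzyme-only replicate 3, limma called 10 of 38 members, 1 higher and 9 lower, where it called 2296 genes higher and 34 lower of 4954. RPS2 was among the 9 at -2.02 (SE 0.29, limma adjusted p = 0.000573) and RPSA at -2.52 (SE 0.67, limma adjusted p = 0.0125), and RPS23 was the member called higher at 1.72 (SE 0.52, limma adjusted p = 0.0221). That fit compares with 1 enzyme-only library, whose spread is assumed to be like that of the RBFOX2-INSCRIBE libraries.

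Against buffer-only, which shows what antibody and Apo1-Nb add together, 4 members rose and 1 fell. Of 25 members that passed the filter 5 were called, where 63.9% of 4804 genes were. The 4 that rose compare with 63.8% called higher, and the 1 that fell compares with 4 genes called lower, 0.0833%. The median log2 difference was 0.16 over the members and 1.54 over all genes. The lower and upper quartiles were -0.24 and 0.72 for the members and 0.90 and 2.16 for all genes. Among the members 16 of 25 were higher in RBFOX2-INSCRIBE, 64.0%, against 95.0% of all genes. With libraries scaled to the same total of C-to-U sites, the median of all genes was 0.10, that of the members was -1.29, and limma called 0 members higher and 9 lower, beside 395 genes higher and 283 lower. As RBFOX2-INSCRIBE had the higher totals, that scaling lowers all its genes against buffer-only. The members' median was also -0.13 with a minimum mean of 20 edited Cs (8 members, all genes 1.72), 0.84 with summed fractions (all genes 1.62) and 1.86 over sites with a fraction of at least 0.02 (3 members, all genes 1.86). This comparison shares its RBFOX2-INSCRIBE libraries with the one before. By libraries alone, 8 members had both RBFOX2-INSCRIBE values above both buffer-only values, beside 57.5% of genes, and 4 had both below, beside 2.29%.

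**Figure D3:**
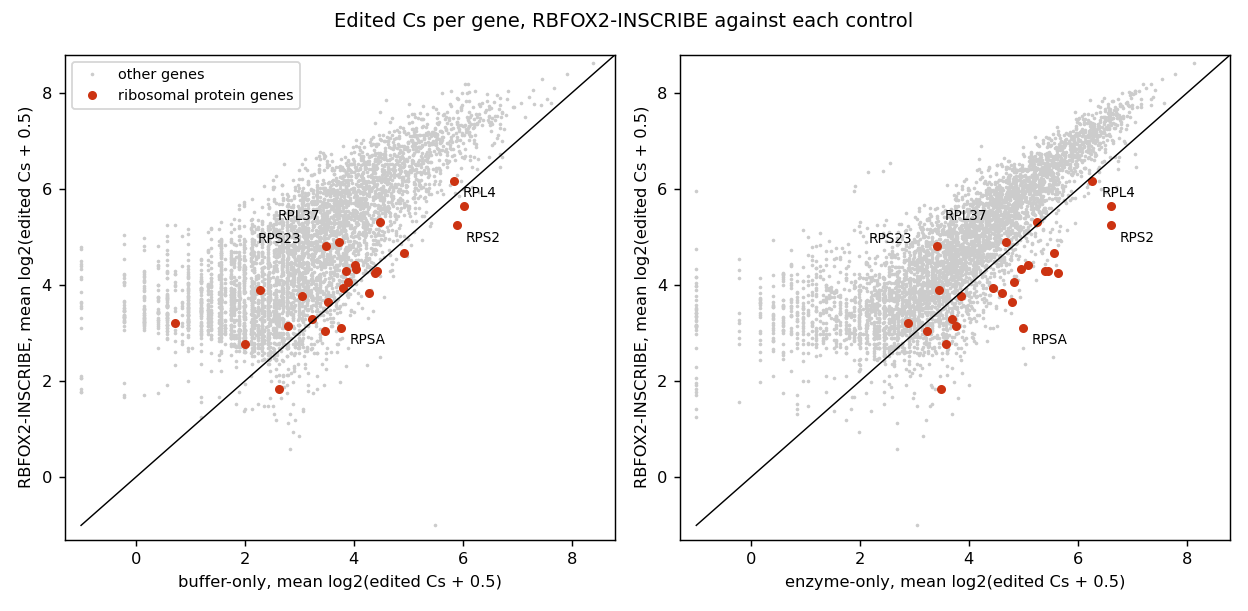
Each point is a gene tested against buffer-only, with its mean log2(edited Cs + 0.5) in RBFOX2-INSCRIBE on the vertical axis and in buffer-only (left) or enzyme-only (right) on the horizontal axis, and the line marks equal values. The 25 ribosomal protein genes spread around the line on the left (median log2 difference 0.16) while most genes lie above it (median over all genes 1.54). The members' median was -1.29 with equal C-to-U totals, -0.13 with a minimum mean of 20 and 0.84 with summed fractions.

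The 4 members that rose were RPS24, RPS23, RPL37 and RPL22. In RPS23 the edited Cs numbered 23 and 33 in RBFOX2-INSCRIBE, 8 and 13 in enzyme-only and 13 and 9 in buffer-only. It was 2.48-fold higher than in buffer-only, a log2 difference of 1.31 (SE 0.43, limma adjusted p = 0.00985). RPL37, a zinc-binding protein of the large subunit, had 27 and 32, 19 and 33, and 11 and 15. Its log2 difference was 1.16 (SE 0.40, limma adjusted p = 0.0129). RPL22, which also binds viral RNAs, had 37 and 42, 35 and 40, and 23 and 21, with a log2 difference of 0.83 (SE 0.31, limma adjusted p = 0.0224). RPL22 and RPL37 overlapped between RBFOX2-INSCRIBE and enzyme-only, whereas RPS23 did not. RPS24, a protein needed for maturation of small subunit RNA, had 13 and 16, 11 and 10, and 2 and 9. Its log2 difference was 1.61 (SE 0.65, limma adjusted p = 0.0325), and its buffer-only libraries were far apart. RPS23 and RPS24 had both RBFOX2-INSCRIBE libraries above all 4 controls. Under equal C-to-U totals RPS23, RPL37 and RPL22 turned to -0.14, -0.29 and -0.64, and RPS24 stood at 0.23, none of them called.

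RPS2 fell by 0.65 on the log2 scale, 1.57-fold lower than in buffer-only (SE 0.26, limma adjusted p = 0.0348). Under equal C-to-U totals it fell by 2.13, but there the median of all genes moved from 1.54 to 0.10. Under equal G-to-A totals it fell by 0.75 (limma adjusted p = 0.0145). Both totals are values of whole libraries and do not measure how many reads covered RPS2. The part of read depth in the fall of RPS2 was not tested. None of the 5 calls held with all 6 libraries in the fit, and none held without RBFOX2-INSCRIBE replicate 1 or without replicate 2, when limma also called 0 of all genes. Without buffer-only replicate 1, limma called RPL22, RPS23 and RPS2, and without buffer-only replicate 2 it called RPS24 and RPL37. RPS16 had a larger log2 difference of 2.49, but with 7 and 11 in RBFOX2-INSCRIBE and 5 and 0 in buffer-only it did not pass (SE 1.32, limma adjusted p = 0.0996).

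Enzyme-only was also set against buffer-only, with the same buffer-only libraries, to see what Apo1-Nb does without the antibody. Of 32 members tested, limma called 0, where it called 1 of 4209 genes, 0.0238%. At an unadjusted p under 0.05 limma found 6 members higher and 0 lower, beside 567 and 4 of all genes. Without trend and robust settings it called 0 members and 0 of all 4209 genes. The median log2 difference was 0.92 over the members and 0.69 over all genes, and 29 of the 32 were higher in enzyme-only. Without enzyme-only replicate 2 the medians were 0.47 and 1.18, and without replicate 3 they were 1.43 and 0.37. The order of members and all genes thus turned with the library left out. RPS7 differed by 2.53 (SE 0.74, limma adjusted p = 0.149) and RPL7 by 1.59 (SE 0.62, limma adjusted p = 0.257). RPS7 again passed the filter only through enzyme-only, so its direction followed from the filter, and it counts among the 29. In enzyme-only replicate 3, 15 of its edited Cs lay in the retained intron isoform that no other library listed. RPL10, a late-joining large subunit protein, differed by 1.57 (SE 0.76, limma adjusted p = 0.349), RPS6 by 1.24 (SE 0.62, limma adjusted p = 0.359) and RPL8 by 1.28 (SE 0.65, limma adjusted p = 0.363). Both enzyme-only libraries were above both buffer-only libraries in 24 of 74 members, beside 30.8% of 7671 genes, and below in 1, beside 2.76%.

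Tests by isoform were run alike. Against enzyme-only 0 of 32 ribosomal protein isoforms were called by limma, where 0.595% of 5717 isoforms were called higher, and without enzyme-only replicate 3 limma called 12 of 40, 1 higher and 11 lower, beside 48.4% of 5492 isoforms, 2610 higher and 46 lower. Against buffer-only, limma called 5 of 23 isoforms, 4 higher beside 62.4% and 1 lower beside 0.0932% of 5362. They belonged to the same 5 genes. For enzyme-only against buffer-only, limma called 0 of 31 isoforms, where 0.0225% of 4438 were called. The 4 isoforms that rose were 7573 nt (RPL37, ENST00000274242, chr5:40825262-40835222), 3252 nt (RPS23, ENST00000296674, chr5:82273320-82278354), 2061 nt (RPL22, ENST00000234875, chr1:6185020-6199595) and 2146 nt long (RPS24, ENST00000480662, chr10:78038556-78040701), all hg38. The isoform of RPS2 that fell had 945 nt (ENST00000343262), equal to the median of 945 nt over all 115 listed isoforms. RPL37, RPS23 and RPL22 had annotated 3′ UTRs of 7245, 2792 and 1655 nt, and the RPS24 isoform was annotated as a retained intron. Across the 25 tested genes the log2 difference against buffer-only had a Spearman correlation of 0.24 with the length of the most edited isoform, and of 0.40 with 3′ UTR length over the 23 with an annotated 3′ UTR. These describe genes that share libraries and are not independent. The most edited isoforms of the 20 genes not called ranged from 631 to 4535 nt.

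Edited positions in these isoforms lay in different regions. All 27 and 32 edited Cs of RPL37 in RBFOX2-INSCRIBE lay in its 3′ UTR, beginning 2696 and 2791 nt from the transcript start. In RPS23 the 3′ UTR held all 20 and 30 of 33, and in RPL22 28 of 33 and 32 of 36. In RPS2 the coding sequence held 44 of 45 and 29 of 31. Control libraries divided in the same way, with all 19 and 33 RPL37 positions of enzyme-only in the 3′ UTR and 150 of 153 and 60 of 61 RPS2 positions in coding sequence.

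**Figure D4:**
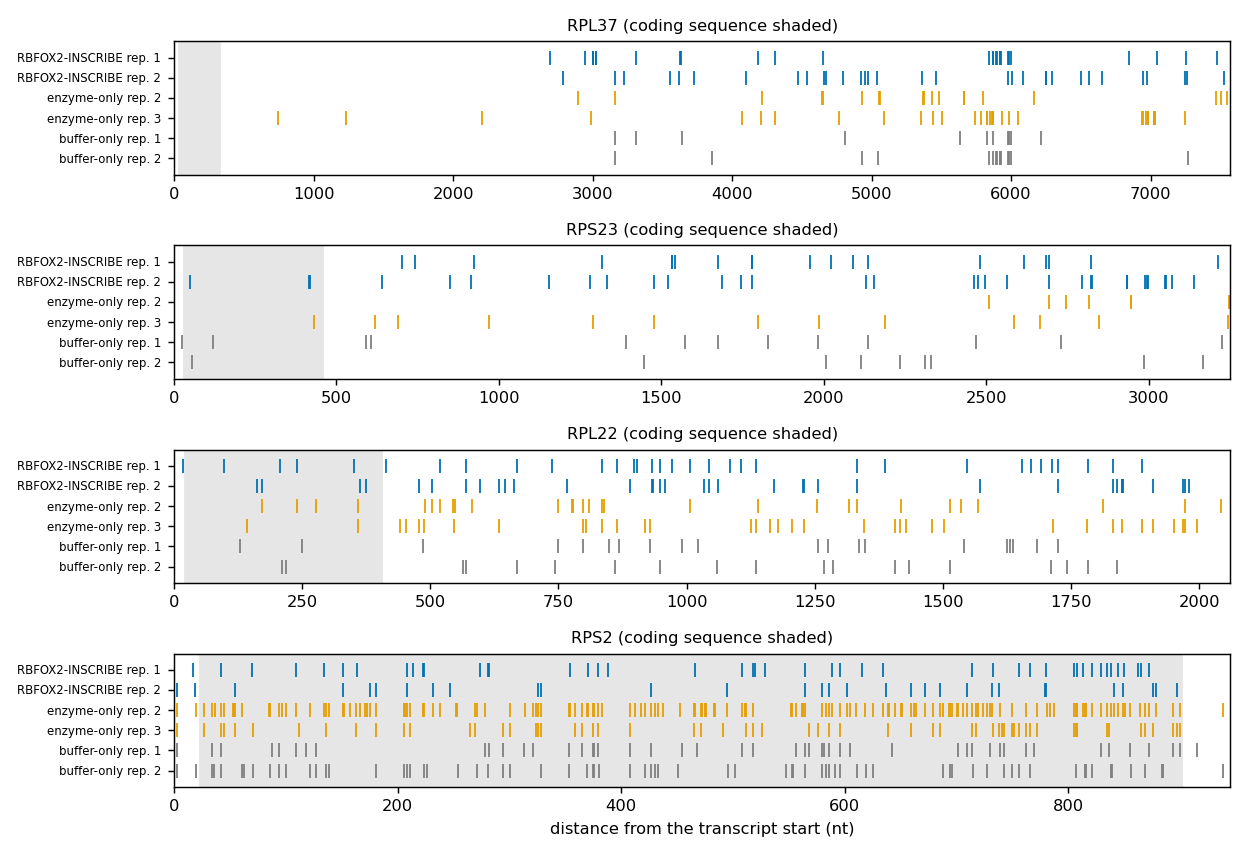
Ticks mark edited Cs along the most edited isoform of RPL37, RPS23, RPL22 and RPS2 in each library, by distance from the transcript start in nt, with the coding sequence shaded. Ticks of RPL37, RPS23 and RPL22 lie mostly right of the shading, and those of RPS2 lie mostly within it (44 of 45 in RBFOX2-INSCRIBE replicate 1).

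By region, a position was counted once for each protein-coding isoform that listed it. In ribosomal protein genes, the edited Cs in 3′ UTRs numbered 164 and 142 in RBFOX2-INSCRIBE, 146 and 126 in enzyme-only and 77 and 85 in buffer-only. Both Apo1-Nb groups were above buffer-only there. Coding sequences held 527 and 286, 1102 and 529, and 383 and 463, and 5′ UTRs held 49 and 27, 81 and 26, and 28 and 27. The RBFOX2-INSCRIBE mean was 1.89 times the buffer-only mean in 3′ UTRs, 0.961 times in coding sequence and 1.38 times in 5′ UTRs. In other protein-coding genes these ratios were 3.93, 2.06 and 1.43. Coding sequence held 71.2% and 62.9% of sites in RBFOX2-INSCRIBE and between 77.7% and 82.9% in the controls, with 41.3% of the Cs of these isoforms. In other protein-coding genes it held 34.8% to 49.1%. The part of read coverage along the transcripts in these shares was not tested.

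APOBEC1 is known to prefer a C that follows A or U. In ribosomal protein genes, A or U preceded 52.1% and 57.3% of the edited positions in RBFOX2-INSCRIBE, 46.2% and 55.0% in enzyme-only and 36.3% and 38.2% in buffer-only. The 4 libraries with Apo1-Nb were all above the buffer-only pair, and A or U precedes 45.8% of all Cs of the same isoforms. In other protein-coding genes the shares were 73.6% and 74.9%, 62.2% and 69.2%, and 42.1% and 42.6%, with 48.0% of all Cs. Ribosomal protein genes were lower in each of the 6 libraries. G preceded 41.0% and 40.8% of their edited Cs in buffer-only, 34.1% and 29.7% in enzyme-only and 28.6% and 29.4% in RBFOX2-INSCRIBE, against 26.4% of all Cs.

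**Figure D5:**
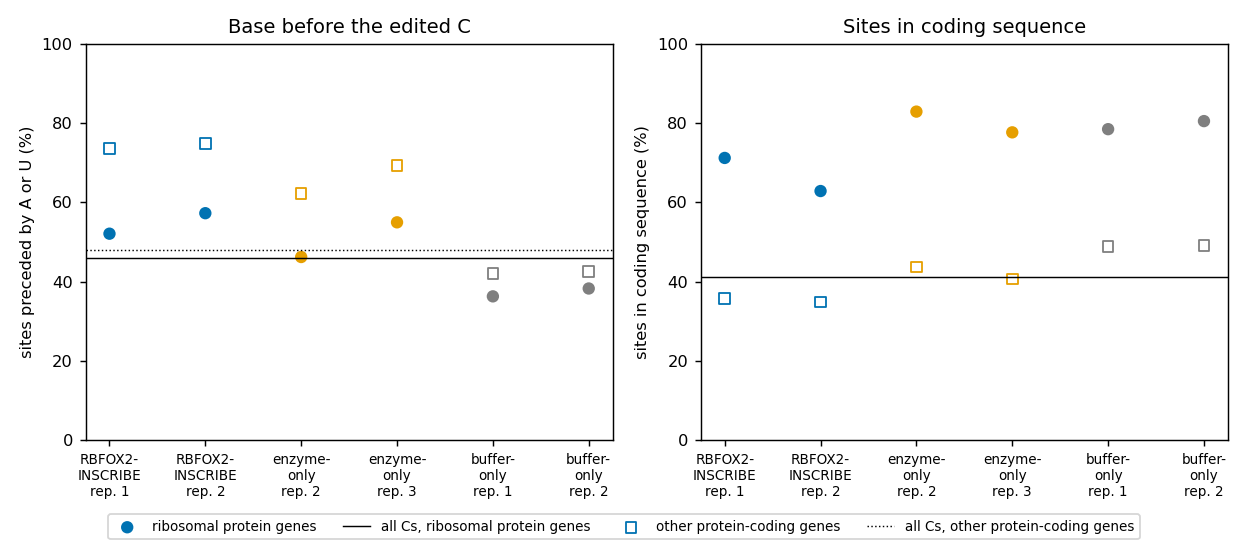
Points give, for each library, the percent of edited Cs preceded by A or U (left) and the percent in coding sequence (right, counted per isoform). Filled circles are ribosomal protein genes, open squares are other protein-coding genes and lines are all Cs. Ribosomal protein genes lie lower on the left (36.3% to 57.3%) and higher on the right (62.9% to 82.9%) than other genes in all 6 libraries.

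UGCAUG occurred in a listed isoform of 22 of the 74 genes and in 26 of 115 isoforms, 22.6%. Of all listed isoforms of protein-coding genes, 55.6% held it. Isoform length, with a median of 945 nt over the 115, was not matched, and a shorter isoform has fewer places for a motif. Edited Cs within 50 nt of it numbered 35 and 17 in RBFOX2-INSCRIBE, 30 and 18 in enzyme-only and 8 and 13 in buffer-only. Divided by the share of all Cs near UGCAUG, their share was 1.97 and 1.71 in RBFOX2-INSCRIBE, 1.35 and 1.36 in enzyme-only and 1.15 and 1.43 in buffer-only. The means were 1.84 ± 0.186, 1.35 ± 0.00328 and 1.29 ± 0.193 (SD, n = 2). In other protein-coding genes they were 1.72 ± 0.0160, 1.06 ± 0.0277 and 1.03 ± 0.0390. Both RBFOX2-INSCRIBE values were above the 4 controls, by a margin that rests on few sites, and with GCAUG in place of UGCAUG the means were 1.134, 0.950 and 1.10. Over sites with a fraction of at least 0.02 the means were 3.68 in RBFOX2-INSCRIBE, 1.07 in enzyme-only and 3.98 in buffer-only. These rest on 11 and 5, 1 and 4, and 1 and 5 sites near UGCAUG, too few to order RBFOX2-INSCRIBE and buffer-only. Over sites of any fraction the largest contributor was RPL7. It had 14 and 4 sites within 50 nt of UGCAUG in RBFOX2-INSCRIBE, 20 and 11 in enzyme-only and 3 and 4 in buffer-only. Without RPL7, which was left out after its values were seen, the means were 1.69, 0.856 and 1.23.

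Next to RPL7, the members with the most such sites in RBFOX2-INSCRIBE were RPL37, RPS23, RPL14 and RPL4. RPL37 had 4 and 3 there, and 1 in each of the 4 controls. RPS23 had 1 and 4, beside 0 in both enzyme-only libraries and 1 and 0 in buffer-only. RPL14 had 3 and 1, 2 and 2, and 1 and 2, and RPL4 had 3 and 1, 0 and 0, and 0 and 3. The 4 RPL37 sites of replicate 1 were all listed at a fraction of 5.88%, and 3 sites of RPL27A in that library were all listed at 5.0%. RPL41, which encodes a very small large subunit protein, had 2 and 1 such sites and 0 in the 4 controls. The following windows of the hg38 transcripts of GENCODE release 44 show edited Cs near the motif in RBFOX2-INSCRIBE, written 5′ to 3′ with T for U. Capitals mark the edited C and, where it falls in the window, UGCAUG.
RPS23 3′ UTR, chr5:82273488-82273512, minus strand: ttgtgttctgtaCcagTGCATGaaa
RPS13 coding sequence, chr11:17077621-17077645, minus strand: catcatgggtcgCaTGCATGctccc
RPL41 3′ UTR, chr12:56117622-56117646, plus strand: tctagagcttgtCtcaatggatcta
The C of RPS23 was edited at 1.5% and that of RPS13, another small subunit protein, at 4.55%, both in RBFOX2-INSCRIBE replicate 2 and in no other library. Over all its sites within 50 nt of UGCAUG, RPS13 had 1 and 1 in RBFOX2-INSCRIBE, 1 and 1 in enzyme-only and 0 and 1 in buffer-only. By these counts RPS13 did not separate RBFOX2-INSCRIBE from the controls. The C of RPL41 was edited at 1.00% in replicate 1 and 1.79% in replicate 2 and lay 19 nt from UGCAUG. Of the windows shown here, that of RPL41 was listed in both RBFOX2-INSCRIBE libraries.

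Few positions recurred. The 74 genes had 3256 distinct sites, of which 2408, 74.0%, were listed in 1 library, 16 in 5 and 0 in 6, since the authors removed edits found across all samples. Sites listed in both RBFOX2-INSCRIBE libraries and in none of the other 4 numbered 27, 0.829%, where over all genes 4.33% of distinct sites did so. Sites listed in both enzyme-only libraries alone numbered 93, 2.86% against 0.762% over all genes, and those in both buffer-only libraries alone numbered 26, 0.799% against 0.341%. RPL4 had 6 of the 27, RPS3A had 3, and RPL22, RPL5, RPLP0 and RPS24 had 2 each. RPS3A, a small subunit protein, had 16 and 14 in RBFOX2-INSCRIBE, 30 and 15 in enzyme-only and 14 and 13 in buffer-only. The windows below show recurrent sites of the members that rose against buffer-only, with the edited C in capitals.
RPS24 retained intron, chr10:78040271-78040295, plus strand: ttggtgtactgaCgtagcaatttaa
RPS24 retained intron, chr10:78038808-78038832, plus strand: tttttgtagagaCaggatttagccg
RPS23 3′ UTR, chr5:82274781-82274805, minus strand: gtaccagtgtttCctaacgtgtagc
RPL22 3′ UTR, chr1:6186025-6186049, minus strand: tacagaaatgaaCgtgtaagtaatg
RPL22 3′ UTR, chr1:6186136-6186160, minus strand: gctaatcctcttCttcctagagaga
Their fractions were 2.47% and 2.44% for the RPS24 site listed before the other, which had 6.25% and 3.23%. The RPS23 site had 1.06% and 1.5%, and those of RPL22 had 0.268% and 0.282%, and 0.270% and 0.576%. Recurrent RPL4 sites in coding sequence were listed at much lower fractions, as at chr15:66501388-66501412, shown for contrast.
RPL4 coding sequence, chr15:66501388-66501412, minus strand: ggataatggtatCatcaaggccttc
This C was edited at 0.131% and 0.0997%, in RBFOX2-INSCRIBE replicates 1 and 2. Read numbers are not listed, so the fractions of these recurrent sites may each rest on few edited reads. A low fraction can be listed only where many reads cover the site, and the part of read depth in this contrast was not tested.

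Retained intron isoforms made up 13 of the 115 listed and belonged to 12 genes. Their edited Cs numbered 30 and 35 in RBFOX2-INSCRIBE, 41 and 40 in enzyme-only and 12 and 17 in buffer-only. Of the 40 in enzyme-only replicate 3, 15 came from the RPS7 isoform listed in that library alone, and without it the value was 25. With or without it, all 4 libraries with Apo1-Nb were above both buffer-only libraries. In the 11 genes with both kinds of isoform, editsC of retained intron isoforms was 0.544% and 0.635%, 0.744% and 0.653%, and 0.218% and 0.290%. In protein-coding isoforms of those genes it was higher in every library, at 2.36% and 1.82%, 2.63% and 2.10%, and 1.35% and 1.64%. The RPS24 retained intron isoform had 12 and 16 edited Cs, 8 and 7, and 1 and 8, in the same order of groups. That of RPL22 had 4 and 6, 8 and 4, and 3 and 2, and that of RPL14 had 8 and 2, 6 and 5, and 1 and 4. In RPS16 it had 1 and 8, 3 and 0, and 4 and 0. RPL10 had 2 such isoforms, each with between 0 and 6 edited Cs in a library.

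Members with other named features had few edits. RPLP1 and RPLP2, the acidic stalk proteins bound by RPLP0, had 4 and 2, 10 and 1, and 6 and 7, and 1 and 0, 3 and 1, and 2 and 0 edited Cs. RPS27A, made as a fusion with ubiquitin, had 2 and 1, 4 and 6, and 1 and 2. Of the paralogues, RPL26L1 had 1 and 2, 4 and 5, and 2 and 1, beside 3 and 0, 7 and 0, and 1 and 2 in RPL26. RPL36AL had 0 and 1, 3 and 0, and 0 and 1, and RPL36A had 0 and 0, 0 and 4, and 0 and 1. RPS27L had 13 edited Cs in enzyme-only replicate 2 and none elsewhere, while RPS27 had 4 and 0, 1 and 1, and 0 and 1. Both enzyme-only libraries lay above the other 4 in RPL26L1 and RPS27A, and the RBFOX2-INSCRIBE values of RPLP1 lay below its buffer-only values, all at counts of 10 or fewer. The 13 members without a listed edit were RPL10L, RPL15, RPL17-C18orf32, RPL21, RPL22L1, RPL36A-HNRNPH2, RPL39L, RPL3L, RPS10-NUDT3, RPS18, RPS21, RPS26 and RPS29. Many ribosomal protein genes have near-identical processed pseudogenes, and the authors kept uniquely assigned reads, so low values of single members are uncertain.

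Other genes of the pathway were taken as lists. Against buffer-only, limma called 9 of 13 tested non-ribosomal mRNAs with a 5′ terminal oligopyrimidine tract higher and 0 lower, with a median log2 difference of 1.02, beside the 63.8% of all genes. Those that rose included EIF3E, a subunit of initiation factor 3, at 2.56 (SE 0.25, limma adjusted p = 7.24e-09) and EEF1A1, the elongation factor that delivers tRNA, at 1.02 (SE 0.19, limma adjusted p = 7.74e-05). EEF1G, a subunit of the factor that recharges EEF1A1, was at -0.09 (SE 0.26, limma adjusted p = 0.765). Of ribosome biogenesis genes, limma called 7 of 15 higher and 0 lower, with a median of 0.74. GNL3, also called nucleostemin, was at 1.86 (SE 0.28, limma adjusted p = 3.96e-06). Of mitochondrial ribosomal protein genes, limma called 15 of 23 higher and 0 lower, with a median of 1.48. RACK1, a scaffold protein on the small subunit, was at 0.33 (SE 0.42, limma adjusted p = 0.489). Against enzyme-only, limma called 0 genes of these lists, with medians of 0.35, 0.48 and 0.47 for these 3 lists, -0.90 for RACK1 and -0.77 for the cytosolic ribosomal protein genes. Enzyme-only against buffer-only also gave 0 calls, with medians of 0.48, 0.43 and 0.97 and 1.23 for RACK1. Differences between the lists were not tested.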

How the data were processed

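The authors sequenced full-length cDNA of each library on a PacBio Revio, assembled circular consensus reads with ccs, split and trimmed them with skera, lima and refine, aligned them to hg38 with pbmm2 and assigned primary alignments uniquely to isoforms with IsoQuant. Each deposited row gives an isoform, a position and the fraction of its reads that carried the edit. The authors removed edits found across all samples and dbSNP positions. The annotation version was not given in the sources used here, so GENCODE release 44 was assumed. Between 99.74% and 99.76% of rows belonged to its isoforms, and the others were left out.

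C-to-U edits on the strand of the gene and inside exons were counted once per gene, position and library. For tests by isoform and counts by region or isoform type they were counted once per isoform. Edits reading as G-to-A were left out except where named. Python 3.11.15 (numpy 2.4.6, pandas 2.3.3, matplotlib 3.10.9) and R 4.3.3 were used. Edited Cs were compared with limma 3.58.1 (trend and robust), with a minimum mean of 5, a pseudocount of 0.5, Benjamini-Hochberg adjustment over all genes and a threshold of 0.05. The fit was tested on simulated counts in which the libraries of a group shared the same means. That test does not cover differences such as those between the enzyme-only libraries. Members and lists were chosen with earlier results of these data known.

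Named genes were RPSA, the RPLP genes, RPS27A, RPL41 and paralogues; the members past the threshold in a comparison or, in comparisons with under 3 of those, the 5 of smallest p; the 5 highest and 5 lowest in editsC among members edited in every library; the 5 with the most sites near UGCAUG, recurrent RBFOX2-INSCRIBE sites or retained intron edits. RPS13 and the pathway genes named with values lie outside this rule and were chosen after their values were seen. Alternatives covered the pseudocount, minimum, scaling, fraction, strand, summed fraction, fit, replicate block and leaving out each library. The labels give 2 different replicate numbers for the enzyme-only libraries.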

Additional observations from a re-analysis of the deposited data

Results flagged for a closer look

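G-to-A sites, which were not part of the comparisons, numbered 106 in ribosomal protein genes of enzyme-only replicate 2, above the 52 and 43 of the buffer-only libraries. Enzyme-only replicate 3 had 39, and the RBFOX2-INSCRIBE libraries had 39 and 26. RPL5 held 44 of the 106, and 12, 7, 12, 21 and 14 in RBFOX2-INSCRIBE replicates 1 and 2, enzyme-only replicate 3 and buffer-only replicates 1 and 2. Over all genes enzyme-only replicate 2 had 4410 G-to-A sites, the fewest of the 6 libraries.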

How the results depend on the processing

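The median log2 difference of ribosomal protein genes against enzyme-only, -0.77, was -1.57 with equal C-to-U totals, and turned to 0.67 over sites with a fraction of at least 0.02 and to 0.089 with summed fractions, where RPSA also turned to 0.19. Leaving out 1 library gave medians of -1.40 to -0.18, 0 to 10 called genes and 0 to 12 called isoforms, with the highest counts without enzyme-only replicate 3, when 47% of all genes and 48.4% of all isoforms were called. Without enzyme-only replicate 2, 0 members and 4.24% of all genes were called.

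Against buffer-only the 5 called genes (63.9% of all genes) became 3 with a minimum mean of 1 (45.1%), 3 with 20 (91.5%), 9 with equal C-to-U totals (14.1%), 0 with all 6 libraries fitted (47.8%), 2 with a fraction of at least 0.02 (46.3%), 2 with summed fractions (38.2%) and 2 without trend and robust settings (55.9%). Leaving out 1 library gave 0 to 3: 0 without either RBFOX2-INSCRIBE library (0% of all genes), 3 without buffer-only replicate 1 (58.8%) and 2 without replicate 2 (56%). The median of 0.16 turned to -0.13 with a minimum of 20 and to -1.29 with equal C-to-U totals, was 1.86 with a fraction of at least 0.02 and 0.84 with summed fractions, and ranged from -0.15 to 0.59 with 1 library left out, negative without RBFOX2-INSCRIBE replicate 1. With equal C-to-U totals RPS23 turned to -0.14, RPL37 to -0.29 and RPL22 to -0.64.

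For enzyme-only against buffer-only the median of 0.92 was 0.27 with equal C-to-U totals and 1.32 with a fraction of at least 0.02, and ranged from 0.47 to 1.43 with 1 library left out. Equal G-to-A totals gave 8 called genes of 32, all higher, in place of 0, beside 22.2% of all genes. The UGCAUG ratio of 1.84 was 1.65 within 20 nt, 1.134 for GCAUG and 3.68 with a fraction of at least 0.02, and 1.71 to 1.97 with 1 library left out. The cause of these changes was not tested. With a replicate block, limma called 0, 5 and 0 members in the 3 comparisons, the same numbers as without it. Of all genes it called 0.57%, 64.1% and 0.0238%. The block used the numbers of the replicate field, since by title the enzyme-only libraries share 1 number with the others. Differences between the libraries of a group correlated across genes with those of the other group at 0.11, 0.03 and -0.04, and the numbers were not taken to pair libraries. The part of depth in these values was not tested.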

Other observations

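Within coding sequence, the edits of ribosomal protein genes would be synonymous at 43.7% and 45.6% of sites in RBFOX2-INSCRIBE, 45.1% and 41.9% in enzyme-only and 39.1% and 43.1% in buffer-only, against 45.6% of all their coding Cs. They would make a stop codon at 5.70% and 8.07%, 6.45% and 6.07%, and 4.72% and 4.55%, against 6.13% of all coding Cs. The 4 libraries with Apo1-Nb were above both buffer-only libraries for stop codons, a difference that was not tested.

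All 13 edited Cs of RPS27L (ENST00000330964), a paralogue of RPS27, were listed in enzyme-only replicate 2 alone, and 10 of them had a fraction of 100%. The 15 edited Cs in the retained intron isoform of RPS7 (ENST00000481006) were listed in enzyme-only replicate 3 alone, with a median fraction of 1.82%.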
